A study of Bos taurus with 12 samples.

Results

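Of the 20790 m6A peaks listed for bovine myotubes, 2930 each lay over 2 or more peaks of the myoblast list, and these merged loci are described here together with the 5986 myoblast peaks, of 19739, that they took in. A merged locus was chosen by the overlap of the lists themselves: exon blocks of a myotube peak had to share at least 1 base, on the same chromosome and gene strand, with exon blocks of at least 2 myoblast peaks. The number of peaks, their overlap, their length and their fold enrichment therefore come from the contrast that selected the loci, and they are given as a description without a test. The RNA level of the host genes in the input libraries was not a criterion of the rule and was tested, but the peaks had been called against these same input libraries, so that test is not fully independent of the selection.

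Proliferating myoblasts (GM) and myotubes (DM) were compared, both grown from longissimus dorsi muscle of Qinchuan cattle at birth. GM cultures were taken at 80% confluence in growth medium with 20% fetal bovine serum. DM cultures were taken at 100% confluence after 4 days in differentiation medium with 2% horse serum. From the 3 cultures of a group came 3 input libraries and 3 libraries immunoprecipitated (IP) with an m6A antibody, 12 in all. The study's methods speak of a single newborn animal as the source, so the cultures may share 1 animal, and p-values measure only the spread between cultures. The cultures held muscle RNA: the 10 muscle markers summed to 1058 to 1105 FPKM in the GM inputs and 1581 to 1632 FPKM in the DM inputs, with 4 of them higher and 3 lower in DM. The 7 fibroblast markers, collagens among them, summed to 10284 to 10431 FPKM in GM and 11634 to 12199 FPKM in DM. Of these 0 were called (limma, a fold change over 1.5 with an unadjusted p under 0.05). At that p alone 4 passed, and the share of all genes at that p alone was not counted. The adipocyte, endothelial and immune markers each summed to under 3 FPKM in every library, and of the 10 in the table ADIPOQ, FABP4, CIDEC, LEP, PECAM1, CDH5, VWF and CSF1R averaged below 0.5 FPKM. The part of fibroblast RNA in the results was not tested, and fewer cells of a type cannot be told apart from less RNA per cell.

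m6A is the methylation of adenosine at the N6 position, the most common internal mark of messenger RNA. It is written by a complex around METTL3 and METTL14 with WTAP, VIRMA and RBM15 or RBM15B, erased by FTO and ALKBH5 and bound by the YTH family of readers, and it is densest near stop codons, in 3′UTRs and in long internal exons. In m6A-seq the RNA is broken into fragments before the antibody step, so a peak marks a stretch of exon rather than 1 base, and several nearby sites can appear as separate peaks or as 1 broad peak.

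The merged DM peaks made up 14.1% of the DM list and the GM peaks inside them 30.3% of the GM list. Of the 2930 loci, 2382 took in 2 GM peaks, 424 took in 3 and 124 took in 4 or more. They lay in 2439 genes, of which 2025 held 1 merged DM peak, 358 held 2 and 56 held 3 or more. The reverse arrangement, 1 GM peak over 2 or more DM peaks (a split locus), was found for 1475 GM peaks, 7.47% of that list. Merged loci were thus 1.99 times as many as split loci. The ratio was 3.19 (2212 to 693) when at least 50% of each peak inside a locus had to be covered. Each list was called once on the pooled libraries of its group, so these ratios carry no replicate error. The lists also differed in extent: the exonic length of all peaks summed to 13355124 bases in DM and 10358127 bases in GM. In 10239 cases 1 GM peak and 1 DM peak overlapped each other and nothing else (1:1 pairs), and the DM peak was the longer one in 67.0%.

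**Figure D1:**
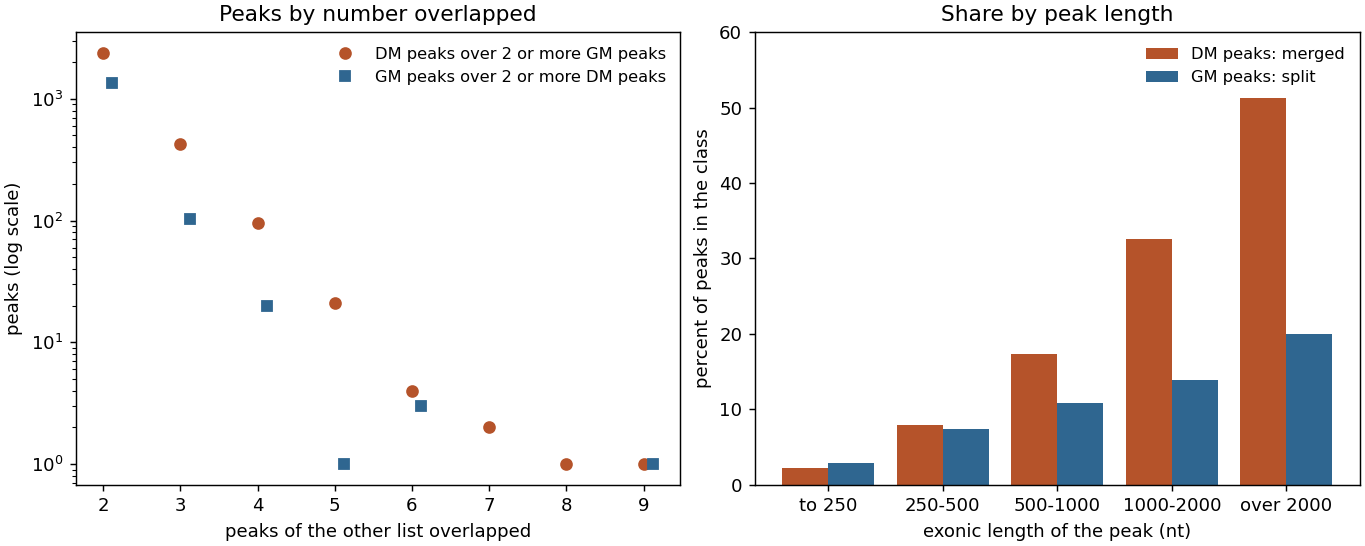
Left, the number of DM peaks (circles) and GM peaks (squares, shifted to the right for visibility) by how many peaks of the other list they overlapped, on a log scale; 2382 DM peaks and 1347 GM peaks overlapped exactly 2. Right, the percent of peaks in each class of exonic length (nt) that were merged (DM list) or split (GM list); above 2000 nt the shares were 51.3% and 20.0%.

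Length went with merging. Of DM peaks up to 250 nt of exon, 2.22% were merged, and the share was 17.3% between 500 and 1000 nt and 51.3% above 2000 nt. The share of GM peaks that were split rose less with length, from 2.89% to 20.0% over the same classes. Merged DM peaks had a median exonic length of 1010.5 nt, against 421 nt for all DM peaks and 537 nt for the DM peaks of 1:1 pairs. The GM peaks inside merged loci had a median of 325 nt, against 352 nt for all GM peaks. In all, 72.2% of the bases of the merged DM peaks were covered by a GM peak, 15.3% filled the space between GM peaks and 12.5% lay beyond the outer ones. By chromosome the merged share of DM peaks ran from 9.97% on chromosome 15 (60 of 602) to 19.7% on chromosome 29 (112 of 568).

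The overlap rule takes in loci of more than 1 shape. In 2486 loci (84.8%) at least 1 exonic base of the DM peak separated neighbouring GM peaks. In the other 444 the GM peaks left no uncovered base between them within the DM peak. In 2039 loci (69.6%) there was a gap and none of the GM peaks touched any other DM peak. These are called closed merged loci below, and their GM peaks may still extend beyond the DM peak, by up to 1871 nt in all. By the same definition there were 568 closed split loci, a ratio of 3.59. Of all merged DM peaks 572 shared a GM peak with another merged DM peak, up to 6 on 1 GM peak. At the edge of the rule, CYYR1 (DM fold enrichment 6.39) and CCDC191 (2.28) were included on 1 shared base with the last GM peak. AP4M1 (3.51) and NELFCD (11.0) were left out because 12 and 17 bases separated the DM peak from the next GM peak. In 136 loci the second overlap was 10 bases or fewer.

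XIRP2, which encodes an actin-binding repeat protein of the muscle intercalated disc and sarcomere, held the DM peak with the most GM peaks. The peak ran over 7510 nt of exon at chr2:28999364-29008473 (ARS-UCD1.2, minus the introns) with a fold enrichment of 6.25. It took in 9 GM peaks. From 5′ to 3′ their fold enrichments were 1.51, 2.98, 3.53, 2.64, 1.92, 2.12, 4.39, 6.38 and 3.09. One of them, 2065 nt long, thus carried about the enrichment of the whole DM peak, and the others were lower. The widest stretch without a GM peak measured 1016 nt. A second merged locus in the 3′UTR of XIRP2 joined GM peaks of 4.98 and 2.29 into a DM peak of 5.74. Input RNA of XIRP2 was 5.85, 6.40 and 5.24 FPKM in GM and 8.90, 6.16 and 9.50 FPKM in DM. These ranges overlapped, and the log2 fold change of 0.41 ± 0.14 (SE) stayed under the fold threshold (adjusted p = 0.046).

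FAT4, which encodes an atypical cadherin of the Hippo and planar polarity pathways, came next. Its DM peak at chr17:32437632-32529264 covered 5423 nt of exon with a fold enrichment of 7.79 and took in 8 GM peaks. The GM peak of 1828 nt had a fold enrichment of 7.28, that of 690 nt at the 3′ end 5.01, and the other 6 lay between 1.69 and 2.68. FAT4 held 2 more merged loci, with DM peaks of 5.35 over 3 GM peaks and of 3.05 over 2. NDE1, which encodes a dynein regulator, had 7 GM peaks of 1.99 to 13.1 under a DM peak of 12.9, but these GM peaks overlapped one another by 528 bases and some touched other DM peaks, so the locus was not closed. Other long closed loci joined 5 GM peaks of 1.38 to 2.29 into a DM peak of 3.61 in APC, a scaffold of the Wnt pathway, and 5 GM peaks of 1.35 to 4.34 into a DM peak of 4.45 in SETD2, a histone H3 lysine methyltransferase.

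**Figure D2:**
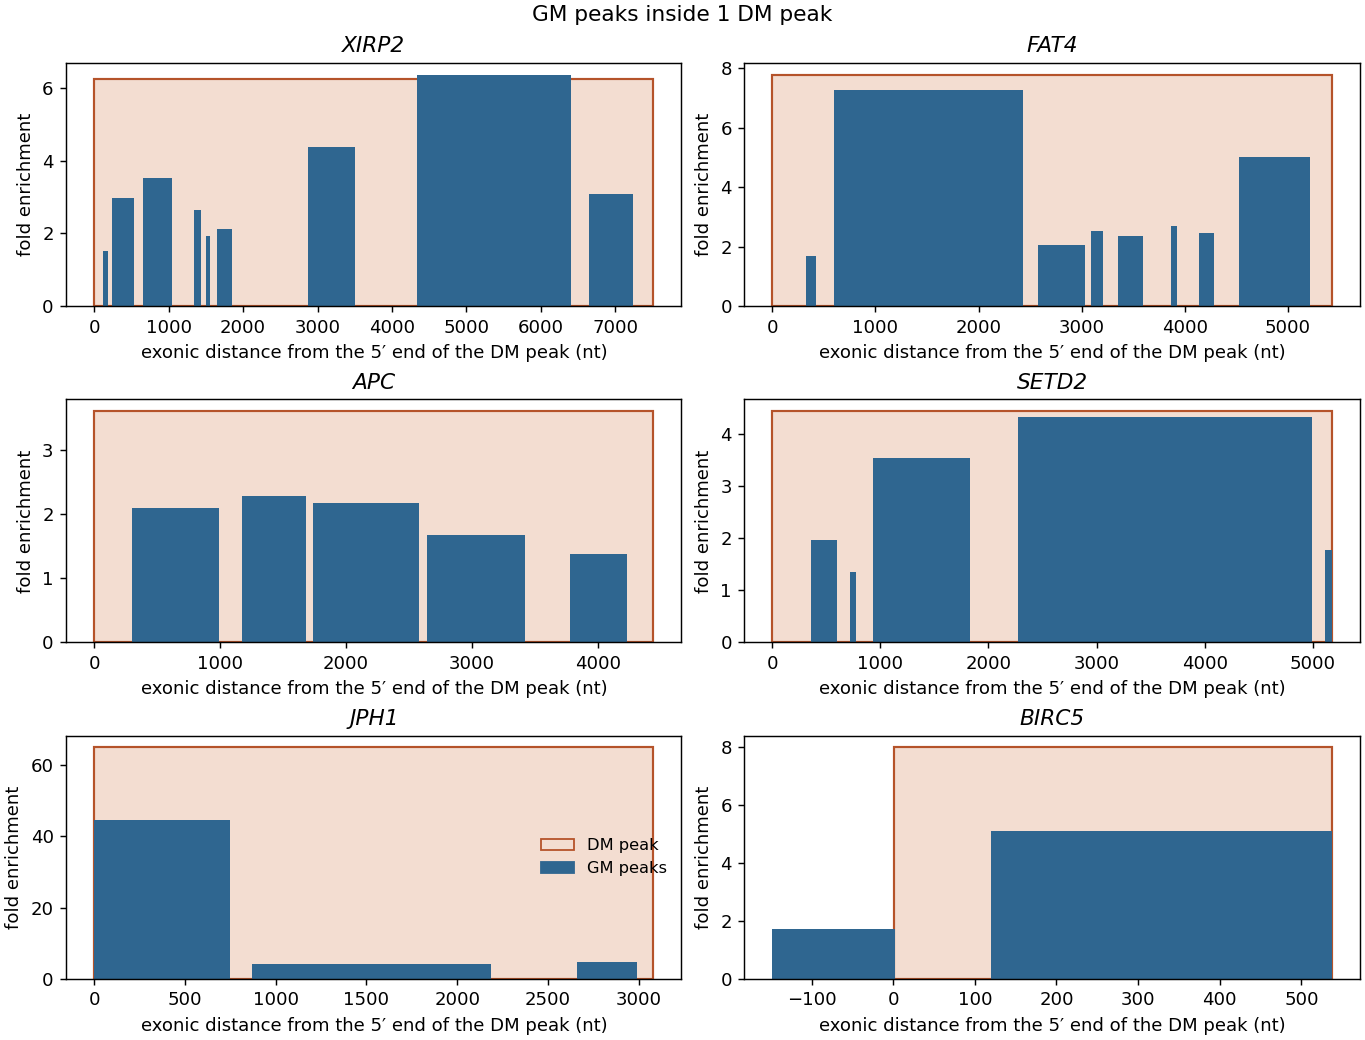
Fold enrichment (vertical) over exonic distance in nt from the 5′ end of the DM peak (horizontal) at 6 loci; the open box is the DM peak and the filled boxes are the GM peaks of the same locus. In XIRP2, FAT4, APC and SETD2 the DM peak of 6.25, 7.79, 3.61 and 4.45 ran over 9, 8, 5 and 5 GM peaks; in BIRC5 the weaker GM peak (1.73) lay almost wholly upstream of the DM peak and shared its first base.

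The most frequent gaps between the GM peaks fell near a grid. Over the 2486 loci with a gap, the widest gap had a median of 148.5 nt, with 24.9% at 60 nt or less and 94.5% at 500 nt or less. The most frequent values were 59 nt (404 loci) and 58 nt (194 loci), followed by 89, 119, 88, 118 and 149 nt, that is, steps of about 30 nt. The peak caller scans a transcript in fixed steps, which limits how finely most gaps are resolved. Not all gaps were on this grid: in 4 loci the widest gap was 30 nt or less, down to 1 nt. Among closed merged loci the widest gap had a median of 149 nt and a range of 55 to 1348 nt, and in 23.8% it held an exon junction. Closed split loci had a median of 89 nt and a range of 56 to 748 nt. Among loci with strong peaks (a false discovery rate under 0.05 and a fold enrichment of at least 2 in every peak, and a host gene at 0.5 FPKM or more), the widest gaps were 1289 nt in ENSBTAG00000050359, which has no symbol in the files, 1134 nt in CENPJ, a centriole assembly gene, 1049 nt in NSD1, which encodes a histone H3 lysine methyltransferase, and 1016 nt in ZNF292, a zinc finger gene. The DM peaks across them had fold enrichments of 4.78, 29.8, 6.64 and 6.40.

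**Figure D3:**
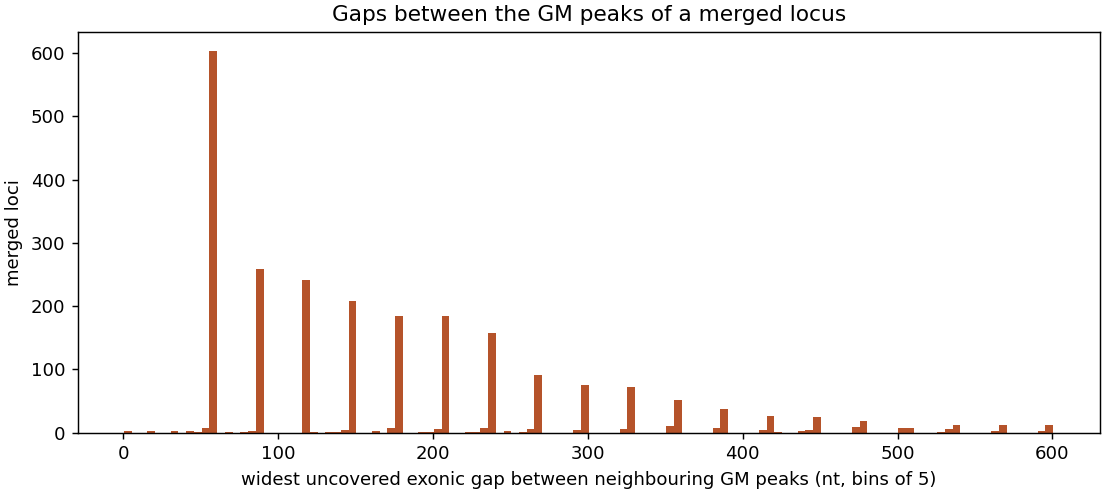
Number of merged loci (vertical) by the widest exonic gap between neighbouring GM peaks in nt (horizontal, bins of 5 nt, gaps up to 600 nt). Gaps pile up near 59, 89, 119 and 149 nt, with the most loci at 59 nt (404).

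The merged DM peak was usually more enriched than the GM peaks it overlapped. Over all 2930 loci the median fold enrichment was 4.53 for the DM peak and 3.84 for the length-weighted mean of the GM peaks. The DM value was the higher one in 69.1% of loci and stood above the strongest GM peak in 56.2%. Loci are not replicates, and 572 merged DM peaks shared a GM peak with another, so no interval is given. In closed merged loci the medians were 4.56 and 3.48, and the DM peak was higher than the mean in 79.2%, above the strongest GM peak in 64.8% and below the weakest in 4.56%. The median log2 ratio was 0.36 there, against 0.07 in 1:1 pairs, in which the DM peak was the higher one in 56.5%. A peak that stands alone over several was also the stronger one in the reverse arrangement. In closed split loci the single GM peak exceeded the mean of its DM peaks in 70.6%, with a median log2 ratio of 0.28. The excess was larger with more parts: the median log2 ratio of closed merged loci was 0.32 with 2 GM peaks (1631 loci), 0.50 with 3 (324 loci) and 0.59 with 4 or more (84 loci).

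**Figure D4:**
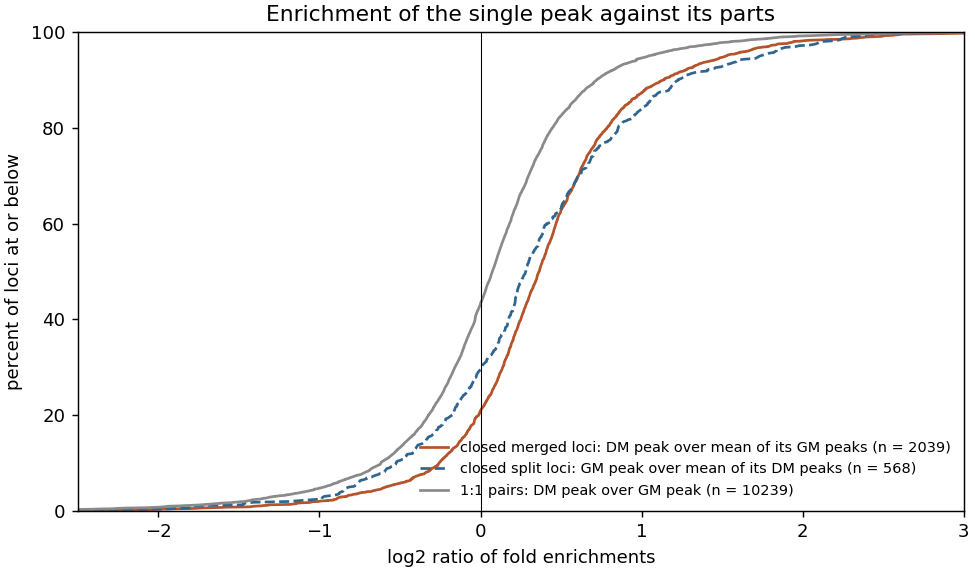
Cumulative percent of loci (vertical) by the log2 ratio of the single peak's fold enrichment over the length-weighted mean of the peaks it overlapped (horizontal), for closed merged loci (solid dark line), closed split loci (dashed) and, as DM over GM, pairs of 1 peak each (grey). The medians were 0.36, 0.28 and 0.07.

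Many fold enrichments took a few recurring values. In the GM list 6.53 occurred 604 times and 7.62 occurred 422 times, and in the DM list 7.45 occurred 448 times and 8.52 occurred 435 times. These are whole multiples of a step of 1.089 in GM and 1.064 in DM, to the 3 digits printed. Only the lower multiples were looked for, so very high fold enrichments could not be matched. The DM peaks of RNF219, HIRA, JPH1 and ENSBTAG00000036298, described below, are among those not checked. Whether they are ratios of few whole reads was not tested, as no read counts are given. A match can also fall on a long peak. In APC a GM fold enrichment of 2.18 belonged to a peak of 841 nt with a log10 false discovery rate of -51. Of the merged loci, 869 (29.7%) had such a value in the DM peak or in a GM peak, and their host genes had a median of 1.43 FPKM, against 5.66 FPKM for the 2061 loci without one. Over those 2061 loci the DM peak was the higher one in 72.1%. Among the loci described by name, recurring values were part of those in CYYR1, NDE1, APC, CENPJ, AGPAT1, DNLZ, TMEM200C, PODN, SHISA2, UBE2C, RYR1, ATP2A1, LDB3, MYH1, MYH2, MYH8, SVEP1, HEY1, HEYL, MSTN, CASZ1, ZFHX3, IRS2, YTHDF1, FRMPD1 and SOX9.

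The highest ratios among strong peaks lay in RNF219, HIRA, DIDO1 and ENSBTAG00000036298, which has no symbol in the files. In RNF219, a RING finger gene, GM peaks of 7.19 and 2.76 were followed by a DM peak of 149 over 1875 nt at chr12:53757409-53780536. In HIRA, a histone H3.3 chaperone, GM peaks of 3.15 and 30.9 stood against a DM peak of 98.0, and the GM peak of 30.9 was only 61 nt long. In DIDO1, a chromatin-associated gene, GM peaks of 2.69 and 2.29 stood against a DM peak of 17.8, and ENSBTAG00000036298 (0.545 FPKM) had 51.1 over GM peaks of 2.74 to 5.17. In the input RNA HIRA measured 7.85, 7.76 and 7.98 FPKM in GM and 8.89, 9.20 and 8.87 FPKM in DM. The lowest ratios were in AGPAT1, NPR2, DNLZ and TMEM200C, with DM peaks of 2.14, 3.39, 2.88 and 3.05 against GM peaks of up to 24, 26.3, 25 and 24. None of those 4 loci was closed, and in 3 of them (all but TMEM200C) the GM peaks left no gap. TMEM200C RNA was called lower at -0.65 on the log2 scale, a call lost without DM replicate 3 (-0.56).

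By the authors' annotation, which gives each peak 1 class, 46.9% of merged DM peaks were in 3′UTRs, 29.2% in other exons and 24.0% in 5′UTRs, against 45.3%, 36.5% and 18.2% of all DM peaks. A DM peak was merged in 18.5% of 5′UTR peaks, 14.6% of 3′UTR peaks and 11.3% of exon peaks. Closed merged DM peaks also differed in length by class, with medians of 1470.5 nt in 5′UTRs, 1108 nt in 3′UTRs and 1079 nt in exons. The part of peak length in these shares was not tested. The GM peaks inside were annotated less often to UTRs, with 39.5% in 3′UTRs, 47.3% in exons and 13.2% in 5′UTRs. Of all GM peaks, 42.6% were in 3′UTRs, 41.3% in exons and 16.1% in 5′UTRs. In 66.0% of closed merged loci all GM peaks carried the same class. Of the 1631 closed loci with 2 GM peaks, 533 joined exon to exon, 479 joined 3′UTR to 3′UTR, 256 joined an exon to the 3′UTR and 154 joined the 5′UTR to an exon. The stronger of both GM peaks lay on the 3′ side in 56.5% of them and on the 5′ side in 42.9%. Where the DM peak was in the 3′UTR, the 5′ one was stronger in 34.8%, and where it was in the 5′UTR, in 55.1%.

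The host genes of merged loci were set against the input RNA, in which 12302 genes averaging 0.5 FPKM or more were tested with limma on log2(FPKM + 1). Over all tested genes 11.9% were called (p under 0.05 and a fold change over 1.5), 4.9% as higher and 6.97% as lower in DM. Of the 2439 host genes, 2083 were tested and 227 were called (10.9%), 144 of them higher (6.91%) and 83 lower (3.98%). Adjustment by the Benjamini-Hochberg method left the same number of calls. The host genes' share of calls was near that of all genes, but 63.4% of their calls were rises, against 41.3% over all genes. With FPKM rescaled to TPM these shares were 71.4% and 54.5%, and the median change over all genes moved, on the log2 scale, from -0.05 to 0.06. Genes with a DM peak but no merged one had 4.73% higher and 7.06% lower.

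Hosts of closed merged loci were called higher in 7.43% and lower in 3.27% of 1682 tested genes. Hosts of closed split loci showed the opposite balance, 4.10% higher and 14.1% lower of 439. Over all split loci the hosts were 4.52% higher and 10.2% lower of 885. Hosts of merged and of split loci overlapped in 624 genes. Of the 485 tested among these, 4.54% were higher and 6.60% lower. The median log2 fold change was 0.00 for hosts of closed merged loci, -0.06 for hosts of closed split loci and -0.05 for all genes. The difference between these groups of hosts was not tested, nor was the part of read depth over the exons. Of genes with a DM peak, 17.0% held a merged locus below 0.5 FPKM, 26.1% between 0.5 and 2 FPKM, 25.7% between 2 and 10 FPKM, 17.6% between 10 and 50 FPKM and 10.7% above 50 FPKM. Split loci were found in 11.6%, 14.3%, 10.8%, 6.14% and 4.37% of the genes in these classes, likewise most often between 0.5 and 2 FPKM. Where the host was called higher in DM, the DM peak exceeded the mean of its GM peaks in 58.3% of 175 loci, and where the host was called lower, in 78.1% of 96 loci. Where the host was tested and not called, the share was 70.9% of 2216 loci. Fold enrichment is a ratio over this same input RNA, so these shares are not independent of the calls.

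**Figure D5:**
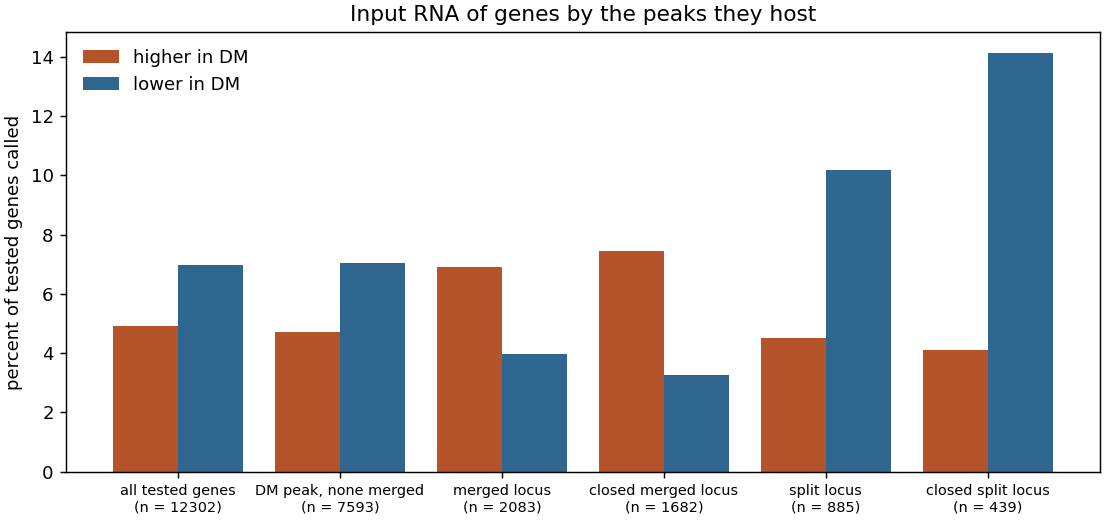
Percent of tested genes called higher or lower in DM (vertical; limma on input FPKM, p under 0.05 and fold change over 1.5) for all tested genes and for genes by the peaks they held, with the number tested under each pair of bars. Closed merged loci had 7.43% higher and 3.27% lower, closed split loci 4.10% and 14.1%.

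The largest rises among hosts were in PODN, PPP1R3A, an unnamed gene (ENSBTAG00000052709), ANXA8L1, SCUBE2 and SHISA2. PODN encodes a small leucine-rich proteoglycan of the matrix. It measured 2.31, 1.94 and 2.56 FPKM in GM and 23.9, 23.5 and 21.6 FPKM in DM, a log2 fold change of 2.88 ± 0.08 (SE, adjusted p = 2.4e-07). The groups were far apart, yet its merged DM peak (2.13) was lower than both GM peaks (2.59 and 4.90). PPP1R3A encodes the muscle glycogen-targeting subunit of protein phosphatase 1. It rose from 0.800, 1.08 and 0.750 FPKM to 9.39, 9.43 and 9.45 FPKM, and 3 GM peaks of 5.63, 2.50 and 2.76 were joined into a DM peak of 4.86. SHISA2, which encodes a modulator of Wnt and FGF receptors, rose from 1.84, 1.87 and 1.59 FPKM to 10.3, 11.1 and 10.8 FPKM, with a DM peak of 2.94 against GM peaks of 6.53 and 5.26.

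The largest falls were in SPC24, BIRC5, UBE2C, CENPF, CDCA2 and ITIH5, and all but ITIH5 serve mitosis. BIRC5, which encodes survivin of the chromosomal passenger complex, measured 28.2, 28.1 and 27.4 FPKM in GM and 2.31, 2.41 and 2.95 FPKM in DM (log2 fold change -3.03 ± 0.08 SE, adjusted p = 2.1e-07). Its DM peak of 7.99 in the 3′UTR at chr19:53940667-53941202 lay over the GM peak of 5.12 and shared only 1 base with that of 1.73. SPC24, a kinetochore subunit, fell from 35.7, 30.2 and 42.3 FPKM to 2.09, 2.28 and 1.91 FPKM, and its DM peak of 2.04 spanned 1067 nt over GM peaks of 90 and 60 nt with a fold enrichment of 1.47 each. CENPF, a kinetochore protein, fell from 8.76, 8.65 and 6.93 FPKM to 0.250, 0.432 and 0.196 FPKM and held 2 merged loci. In one of them GM peaks of 2.31 and 2.10 were joined into a DM peak of 9.05. In all 3 genes the GM and DM libraries did not overlap, as was the case in 54.1% of all tested genes and 55.0% of tested hosts. The DM fold enrichment of CENPF was measured over input RNA below 0.5 FPKM in every DM library.

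Sarcomere and contraction genes held 21 merged loci in 15 of the 63 listed genes, 16 of them closed. Of the 13 host genes tested, 10 were higher in DM and 0 lower (limma; at an unadjusted p under 0.05 alone, 13 and 0). The list as a whole gave 36 higher and 1 lower of 56 (46 and 5 at that p alone), so the hosts went as their list did. Here and in the lists below, the share of all tested genes at that p alone was not counted. Counts at p alone therefore set the hosts only against their own list. The rises included RYR1, the calcium release channel of the sarcoplasmic reticulum, JPH1, which couples that membrane to the T-tubule, the Z-disc genes LDB3, MYPN and MYOZ1, the thin filament gene NEB, the calcium pump gene ATP2A1 and the myosin heavy chains MYH2 and MYH8. JPH1 measured 1.57, 1.72 and 1.31 FPKM in GM and 4.63, 4.09 and 4.45 FPKM in DM. Its DM peak of 65.0 joined GM peaks of 44.6, 4.18 and 4.65 over 3079 nt. RYR1 measured 1.13, 1.16 and 1.2 FPKM in GM and 4.47, 4.30 and 4.38 FPKM in DM, and its DM peak of 12.8 joined GM peaks of 9.80, 2.52 and 2.59. Neither gene's groups overlapped, which also held for 54.1% of all tested genes. The call of MYOZ1 was lost without DM replicate 3, where its log2 fold change was 0.55, and XIRP1 was called with TPM (0.64).

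The DM peak did not always exceed its parts in this list: it was the higher one in 12 of 21 loci, with a median log2 ratio of 0.07. NEB, which encodes nebulin along the thin filament, held 3 closed merged loci with DM peaks of 1.56, 2.20 and 2.99, while its RNA rose from 18.8, 20.4 and 19.8 FPKM to 42.6, 36.0 and 45.2 FPKM. In LDB3 GM peaks of 21.8 and 2.76 were followed by a DM peak of 5.18. MYH8, the perinatal myosin heavy chain, rose from 0.638, 0.436 and 0.486 FPKM to 4.00, 4.09 and 4.10 FPKM. It held a DM peak of 7.10 over 5 GM peaks and one of 4.15 over 3. MYH1, MYH2 and MYH8 are closely similar neighbouring genes, so their reads may have been divided among them and their values are uncertain.

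Matrix and adhesion genes held 20 merged loci in 15 of 53 listed genes, and the DM peak was the higher one in all 20, with a median log2 ratio of 0.31. Of the 13 hosts tested, 4 were higher and 0 lower (limma), against 15 and 5 of 50 in the list. At an unadjusted p under 0.05 alone these were 10 and 2 among the hosts and 27 and 12 in the list. COL12A1, a fibril-associated collagen, measured 833, 881 and 821 FPKM in GM and 1682, 1614 and 1681 FPKM in DM, and its DM peak of 2.45 joined GM peaks of 1.34 and 2.51. COL5A3, a chain of type V collagen, rose from 0.895, 1.07 and 1.01 FPKM to 3.61, 3.18 and 2.84 FPKM. Here 4 GM peaks of 2.31 to 4.79 were joined into a DM peak of 6.28 over 2541 nt. SVEP1, a large extracellular adhesion protein, and COL18A1, the collagen that yields endostatin, were the other 2 that rose, by 0.66 and 0.79 on the log2 scale. In SVEP1 the DM peak of 19.2 stood over GM peaks of 7.62 and 6.66. COL16A1, another fibril-associated collagen, joined the calls without GM replicate 3 (0.59, against 0.57 with it), with a pseudocount of 0.1 (0.59), with size factors (0.64) and with TPM (0.71), and COL5A2, a fibrillar collagen chain, did so with TPM (0.64).

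Myogenic regulators held 7 merged loci in 7 of 36 genes, and the DM peak was the higher one in all 7, with a median log2 ratio of 0.95. Of the 7 hosts 0 were higher and 3 lower (limma), against 4 and 14 of 35 in the list. At an unadjusted p under 0.05 alone these were 1 and 4 among the hosts and 10 and 19 in the list. HEYL and HEY1, transcriptional repressors downstream of Notch, fell by 0.98 and 0.61 on the log2 scale. Without GM replicate 2 HEY1 was at -0.53 and was not called, and with size factors at -0.57. The HEYL DM peak was 7.45 over GM peaks of 4.18 and 2.59, and the HEY1 DM peak was 7.45 over 4.76 and 2.72. The third was MSTN, myostatin, a secreted inhibitor of muscle growth. It measured 1.40, 1.49 and 0.965 FPKM in GM and 0.160, 0.116 and 0.163 FPKM in DM, with a DM peak of 6.39 over GM peaks of 3.33 and 3.27. The DM values 7.45 and 6.39 are recurring ones. EYA4, MKX, NFIX and TCF3 held the other loci, with DM peaks of 7.67, 2.16, 4.94 and 6.73.

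Cell cycle genes held 8 merged loci in 6 of 64 listed genes and split loci in 10. SPC24, BIRC5, UBE2C and CDCA2, named above among the largest falls, were not on this list and are not counted here. Of the 5 hosts tested 0 were higher and 2 lower, CENPF and CLSPN, a checkpoint adaptor at the replication fork (0 and 5 at an unadjusted p under 0.05 alone). In the list 42 of 61 were lower and 0 higher (57 and 2 at that p alone). E2F3, an E2F transcription factor of the G1/S transition, had a DM peak of 7.90 over GM peaks of 1.66 and 7.04, and CDK6, a G1 cyclin-dependent kinase, one of 2.74 over 1.88 and 1.67. CDC6, a replication licensing factor, held 2 merged DM peaks over the same pair of overlapping GM peaks, and was called lower only without GM replicate 3 (-0.59) or DM replicate 2 (-0.60), with a pseudocount of 0.1 (-1.13) or with TPM (-0.73), against -0.53 with all libraries.

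Chromatin genes and transcription coregulators, many of them with long coding exons, held 53 merged loci in 34 of 58 listed genes, 37 of them closed, and split loci in 21 genes. Of the 32 hosts tested 1 was higher, CASZ1, a zinc finger transcription factor, and 0 were lower (limma). The list gave 1 higher and 1 lower of 57, with a median log2 fold change of -0.02. At an unadjusted p under 0.05 alone there were 4 higher and 2 lower among the hosts and 7 and 9 in the list. The DM peak was the higher one in 29 of the 53 loci. KMT2A, a histone H3 lysine 4 methyltransferase, held 4 merged loci with DM peaks of 5.46, 3.04, 5.18 and 4.22. ZFHX3, a homeobox and zinc finger factor, joined 5 GM peaks of 1.87 to 9.98 into a DM peak of 10.6. TET2, a 5-methylcytosine dioxygenase, joined GM peaks of 2.40 and 5.02 into one of 6.59 over 3498 nt.

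Signalling receptors and ligands held 21 merged loci in 18 of 58 listed genes, and of 17 hosts tested 3 were higher and 2 lower, against 11 and 8 of 52 in the list. FZD1, a Wnt receptor, rose from 17.2, 17.9 and 17.0 FPKM to 47.5, 44.2 and 48.6 FPKM and held 2 closed loci, with 4 GM peaks of 1.47 to 2.28 under a DM peak of 2.62 and GM peaks of 2.76 and 1.51 under one of 3.90. MET, the receptor of hepatocyte growth factor, fell from 11.5, 11.5 and 11.2 FPKM to 3.59, 3.67 and 4.08 FPKM, and 3 GM peaks of 2.25, 3.04 and 1.95 were joined into a DM peak of 4.69. BMP4, a ligand of the bone morphogenetic protein family, and IRS2, an adaptor of the insulin receptor, rose by 0.87 and 0.90 on the log2 scale, and FZD3 fell by 0.61. FZD3 was at -0.55 and not called without GM replicate 2, and its call was also lost with size factors (-0.56) and TPM (-0.54). IRS1 was called without DM replicate 2 (-0.63, against -0.57 with it) and with a pseudocount of 0.1 (-0.69). In IGF2, insulin-like growth factor 2, GM peaks of 2.65 and 6.57 were joined into a DM peak of 5.19, with RNA at -0.44 ± 0.06 on the log2 scale (SE), under the fold threshold.

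The m6A machinery itself held 4 merged loci, all closed, in HNRNPA2B1, RBM15B, VIRMA and YTHDF1. Of these hosts 0 were called in either direction, and of the 21 machinery genes tested 0 were (limma). At an unadjusted p under 0.05 alone 0 hosts were higher and 3 lower, against 1 and 9 of the 21 genes. VIRMA, a subunit of the writer complex, joined GM peaks of 3.05, 2.97 and 3.04 into a DM peak of 4.58 over 2957 nt, with a widest gap of 626 nt. It measured 15.2, 15.2 and 14.2 FPKM in GM and 12.9, 12.5 and 12.7 FPKM in DM. HNRNPA2B1, a proposed nuclear reader, joined GM peaks of 1.2 and 4.5 into one of 5.69, and its RNA was called lower without GM replicate 3 (-0.60 on the log2 scale, against -0.56 with it). In YTHDF1, a cytoplasmic reader, the DM peak (4.13) was lower than the 5′ GM peak (15.2) and higher than the 3′ one (2.69). Its RNA measured 8.79, 8.86 and 9.98 FPKM in GM and 9, 9.31 and 9.89 FPKM in DM, and the groups overlapped.

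Among the genes named in the study's text and tables, COL5A3, MYH8, IGF2 and YTHDF1 are described above, and FRMPD1, PPIP5K1 and SOX9 also held a merged locus. FRMPD1, which encodes a scaffold protein with FERM and PDZ domains, had GM peaks of 4.36 and 6.75 and a DM peak of 27.7 over 2366 nt, annotated to the 3′UTR although its 5′ GM peak was annotated to an exon. SOX9, a transcription factor of cartilage formation, had GM peaks of 5.66 and 13.1 and a DM peak of 8.52, of which the latter 2 are recurring values, and PPIP5K1, an inositol pyrophosphate kinase, GM peaks of 3.43 and 2.57 and a DM peak of 3.69. None of the 3 was called by limma in the input RNA, with log2 fold changes of -0.41, -0.33 and 0.25. With a pseudocount of 0.1, however, FRMPD1 and SOX9 were called lower (-0.63 each). The study, which used edgeR on counts, lists all 3 as changed in both m6A and mRNA, with mRNA changes in these same directions. Its m6A values are higher in DM for FRMPD1 and PPIP5K1 and lower for SOX9. They belong to single peaks, which need not be those of the merged locus. For FRMPD1 the study's peak lies outside the merged locus.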

How the data were processed

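Sequencing libraries of both groups were strand-specific. Per the labels and the study's methods, reads were trimmed, aligned with HISAT2 to ARS-UCD1.2 and reduced to unique, non-duplicate alignments with Sambamba; versions are not given in the sources used here. The authors pooled the libraries of a group and called peaks with exomePeak, with ChIPseeker annotation, giving 1 deposited list per group. The fold enrichment is the authors' ratio of IP over input. The score in the deposited lists is an unadjusted p-value, and the lg.fdr column holds the base-10 logarithm (log10) of the false discovery rate as the authors deposited it. Expression comes as deposited FPKM of the 6 inputs, estimated by the authors using StringTie, on 18436 genes of 29 autosomes. These files give no read counts, so the depth behind a value is unknown here and precision rests on 3 cultures per group. All 6 FPKM columns were mapped to libraries.

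Overlaps were counted over exon blocks in Python 3.11.15 (pandas 2.3.3, numpy 2.4.6, scipy 1.17.1, figures with matplotlib 3.10.9) and checked base by base on simulated blocks. The GM value of a locus is the mean of its GM fold enrichments weighted by exonic length. Shares of loci are given without an interval. Expression was tested in R 4.3.3 with limma 3.58.1 (variance trend) on log2(FPKM + 1), for genes averaging 0.5 FPKM or more, in place of a count test since no counts are used here. Calls needed p under 0.05 and a fold change over 1.5, as in the study. A fold change on this scale understates the change of low genes, and adjusted p-values are Benjamini-Hochberg over the 12302 tested genes. On simulated FPKM for this comparison (12331 genes), 99% of 200 changed genes were recovered and 34 unchanged ones called. The planted changes were well above the fold threshold and lay in genes well above the FPKM filter. Recovery of changes near the threshold, or in genes near the filter, was not tested.

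Loci were named by a rule: the 3 with the most GM peaks; the 4 highest and 4 lowest ratios and the 4 widest gaps among strong peaks; the hosts with the 6 largest rises and falls; hosts in 7 gene lists or named by the study; and the loci at the edge of the overlap rule. APC, SETD2 and the genes shown in the locus maps were picked from these after their values were seen. Members and lists were chosen with earlier results of these data known. Alternatives covered overlap, peak set, GM value, pseudocount, filter, scaling, thresholds, replicate block and each library left out. Some members that the rule names are not reported here.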

Additional observations from a re-analysis of the deposited data

How the results depend on the processing

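Peaks carry no replicate error, FPKM gives no depth, and the alternatives below that restrict loci to those with a gap, to closed loci or to folds off the recurring values were chosen after seeing the data. The 2930 merged loci became 1915 with a false discovery rate under 0.001 in both lists 1946 with a fold enrichment of at least 2 and 2212 when 50% of each GM peak had to be covered. The 1475 split loci became 749 and 1010 under these settings, 693 when 50% of the DM peak had to be covered, 958 with a gap and 568 when closed. The ratio of merged to split loci, 1.99, thus became 2.56, 1.93, 3.19, 2.59 and 3.59. The cause was not tested. The share of merged loci with the higher DM fold enrichment, 69.1%, was 56.2% against the highest GM peak, 74.4% against the unweighted mean, 65.0% after centring on 1:1 pairs, 71.0% and 66.1% with the stricter peak sets, 74.7% with a gap, 79.2% when closed and 72.1% without folds on recurring values. The median widest gap of 148.5 nt was 179 nt in genome coordinates. The 227 called hosts (144 higher, 83 lower) became 81 (54 and 27) with a fold over 2. The higher ones were 227 with TPM, the lower ones 132 with a pseudocount of 0.1, and the lower ones 55 in closed loci. Without 1 library the calls ran from 227 to 231, the higher ones from 140 to 147 and the lower ones from 82 to 87. With a replicate block they were 227, 144 and 83. Libraries with the same number did not deviate together (correlations of -0.0792, -0.1235 and -0.2077), so the numbers were not taken as pairs. Of 1652 values for single genes under an alternative, 1613 kept their side of the thresholds, 23 lost a call and 16 gained one.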
